A study of Homo sapiens with 6 samples.

Results

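The genes described here are 10 immediate early transcription factor genes: the FOS family (FOS, FOSB, FOSL1 and FOSL2), the JUN family (JUN, JUNB and JUND), ATF3, EGR1 and MYC. They were taken by gene symbol from the count files, and all 10 were among the 16907 genes listed. RNA was sequenced from LX-2 cells, an established human line of hepatic stellate cell origin. Stellate cells lie beside the liver sinusoids and can turn into collagen-producing myofibroblasts. Cells were kept in DMEM with 5% serum and transfected with 20 nM small interfering RNA for 72 h, either a negative control (siControl, 3 libraries) or one against OGT (siOGT, 3 libraries). OGT adds single O-linked N-acetylglucosamine sugars to serine and threonine of nuclear and cytosolic proteins. The control came from one supplier and the siOGT reagent, a pool of several sequences, from another, so silencing of OGT and the difference between reagents cannot be told apart. All libraries came from 1 cell line, and siControl and siOGT libraries of one replicate number form a pair.

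FOS and JUN proteins pair through leucine zippers into the AP-1 factor, which binds a short palindromic DNA motif. JUN proteins can pair with each other, whereas FOS proteins need a JUN or related partner, and ATF3 is a stress-induced member of the same zipper superfamily. EGR1 is a zinc finger factor and MYC a helix-loop-helix zipper factor that pairs with MAX. Serum and growth factors switch on many of these genes within minutes without new protein synthesis, through MAP kinases, serum response factor (SRF) and its ETS partners, and their messages are then short-lived. In stellate cells AP-1 is known as a regulator of proliferation and of matrix-degrading enzymes. The libraries come from 1 time after transfection, so they hold no time course of induction.

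OGT, the targeted gene, was at 177, 137 and 121 CPM (counts scaled to a common library size) in siControl replicates 1 to 3 and at 39.9, 27.0 and 29.2 CPM in siOGT, a log2 fold change of -2.18 (SE 0.073). Libraries held 25996770 to 27966801 expected counts. Of the 17 stellate cell and myofibroblast markers in the files, 13 had a mean of at least 1 CPM, and their summed level was 8920 to 10631 CPM in siControl and 8744 to 10520 CPM in siOGT. The sum hides opposite changes: of those 13, 5 were called lower (COL1A1, COL1A2, COL3A1, PDGFRB and THY1), 4 higher (SPARC, TAGLN, LOX and RELN) and 4 did not pass the test. COL1A1 fell by 0.39 on the log2 scale and COL3A1 by 0.64, and SPARC rose by 0.44. LRAT and DES, 2 other markers of the list, had at most 1 and 6 counts in any library. ACTA2, a myofibroblast marker, averaged 6.55 CPM in siControl and 7.58 CPM in siOGT and was among the 4 that did not pass. Summed hepatocyte markers were at 7.0 to 9.92 CPM in siControl and 9.07 to 13.4 CPM in siOGT, with 2 of 8 at a mean of 1 CPM or more and ALB at no more than 3 counts. Cholangiocyte markers, mostly SOX9, summed to 90.8 to 132 and 93.8 to 133 CPM (3 of 6, KRT19 at no more than 4 counts). Endothelial markers summed to 3.93 to 8.37 and 3.52 to 6.39 CPM (2 of 5). Leukocyte markers, mostly CD68, summed to 131 to 162 and 176 to 208 CPM (2 of 6, PTPRC at 9 to 23 counts). CD68 rose by 0.46 on the log2 scale, CYP2E1 was called higher and VWF lower. The part of these marker changes in the results was not tested. In bulk RNA, fewer cells making a message and less message per cell cannot be told apart.

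ATF3, FOSL1 and JUNB rose after siOGT, by 1.6, 1.39 and 1.33 fold, and EGR1 fell to 0.578 of its siControl level. The other 6 genes, FOS, FOSB, FOSL2, JUN, JUND and MYC, did not pass the test. Genes were called at an adjusted p of at most 0.05 in edgeR's paired quasi-likelihood test over all 14853 genes tested. Thus 4 of 10 were called, 3 higher and 1 lower, beside 25.4% of all genes tested, of which 12.7% were higher and 12.7% lower. The median log2 fold change of the 10 genes was 0.17 against 0.0068 over all genes, and the median absolute value 0.32 against 0.19. The siControl and siOGT libraries did not overlap for 3 genes, ATF3, JUNB and MYC, all higher in siOGT, beside 23.9% of all genes (12.1% higher, 11.8% lower). In all 3 pairs 4 genes were higher and 2 lower in siOGT, beside 27.4% and 26.6% of all genes. Among the 1885 genes called higher, ranked by size of change, ATF3 stood 230th, FOSL1 505th and JUNB 679th, and EGR1 stood 144th among the 1881 called lower.

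**Figure D1:**
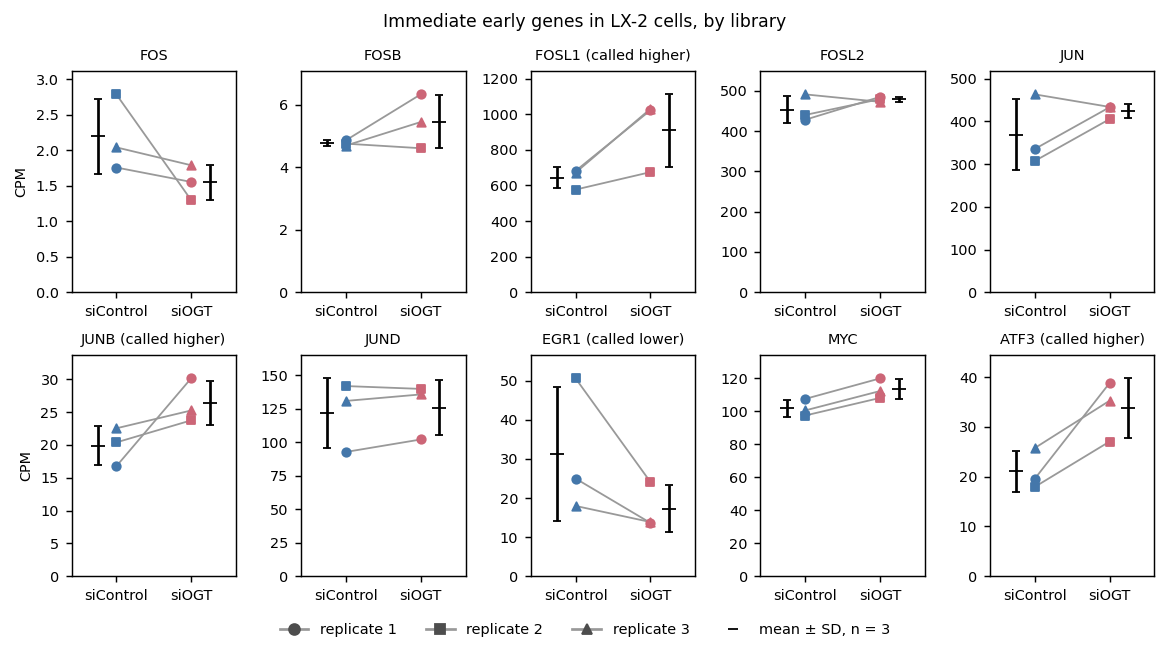
Level of each gene in every library, in CPM on a linear axis that starts at 0 and has its own range in each panel. Symbols mark the replicate, grey lines join the siControl and siOGT libraries of a pair, and black bars give the mean ± SD of 3 libraries. Lines run upward in all 3 pairs for ATF3, FOSL1, JUNB and MYC, and downward in all 3 for EGR1 and FOS.

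FOSL1 encodes FRA-1, a FOS protein without the strong activation domain of FOS, and was the most abundant of the genes. Its level was 682, 577 and 672 CPM in siControl replicates 1 to 3 and 1022, 675 and 1031 CPM in siOGT. All 3 siOGT libraries lay above their own pair, but siOGT replicate 2 was below siControl replicate 1, so the groups overlapped. Means were 644 ± 58.1 and 909 ± 203 CPM (SD, n = 3), and the fitted log2 fold change was 0.48 (SE 0.078, adjusted p = 0.000285, edgeR). The pair ratios were 0.58, 0.23 and 0.62 on the log2 scale, smallest in replicate 2. Without the replicate block the change was 0.50 with adjusted p = 0.148, so the edgeR call was lost, while DESeq2 without the block gave adjusted p = 0.0389. The gene lies on the minus strand of chromosome 11 (chr11:65892049-65900573, hg38) and has 4 exons.

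FOSL2 encodes FRA-2, a FOS protein close to FRA-1, and was at 428, 440 and 491 CPM in siControl and 485, 479 and 473 CPM in siOGT. The groups overlapped because siControl replicate 3 was the highest of the 6 libraries. The log2 fold change was 0.082, with a 95% interval of -0.063 to 0.23 (adjusted p = 0.421, edgeR). FOSB, whose message also gives the stable short form deltaFosB by splicing, was at 4.86, 4.75 and 4.69 CPM in siControl and at 6.33, 4.61 and 5.45 CPM in siOGT. Replicate 2 of siOGT was below all siControl libraries, and the interval of the log2 change ran from -0.12 to 0.50 (adjusted p = 0.39, edgeR). Counts per gene do not separate the FOSB forms.

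FOS itself, the founding member and a classic serum-induced gene, was the least abundant of the 10. It had 47, 71 and 57 counts in siControl and 42, 35 and 48 counts in siOGT, that is 1.76, 2.79 and 2.04 CPM against 1.55, 1.3 and 1.79 CPM. Each siOGT library was below its own pair, yet siOGT replicate 3 was above siControl replicate 1. The log2 fold change was -0.49 with a wide interval, -1.05 to 0.072 (adjusted p = 0.197, edgeR), so at this depth neither no change nor a fall to 0.483 of control lay outside it. FOS lies on the plus strand of chromosome 14 (chr14:75278826-75282230) with 4 exons. Its upstream window is shown because TATAAA, in capitals here and present in 6.07% of the promoters of tested genes, stands close to the start at -33 to -28.
FOS chr14:75278578-75278827, plus strand: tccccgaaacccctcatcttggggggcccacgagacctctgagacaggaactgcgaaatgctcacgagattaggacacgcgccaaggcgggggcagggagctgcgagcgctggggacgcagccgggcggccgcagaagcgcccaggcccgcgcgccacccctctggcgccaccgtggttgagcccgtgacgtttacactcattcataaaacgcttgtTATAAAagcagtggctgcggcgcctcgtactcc

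JUN encodes the best known partner of FOS and was at 336, 308 and 463 CPM in siControl and 433, 405 and 434 CPM in siOGT. The siOGT libraries lay close together, while siControl replicate 3 was the highest of all 6 and replicates 1 and 2 the lowest. Pair ratios were 0.37, 0.40 and -0.095 on the log2 scale, and the log2 fold change of 0.22 (SE 0.084) did not pass the test (adjusted p = 0.0602, edgeR). Without replicate 3 it was 0.38 with adjusted p = 0.000523, and scaling by library totals or keeping all genes also put it past the threshold (adjusted p = 0.0442 and 0.0176). The other 7 of 10 alternatives did not call JUN. Among these, adjusted p was 0.439 without replicate 1 and 0.308 without replicate 2 in edgeR, and 0.0727 in DESeq2 with the block. JUN has 1 exon (chr1:58776845-58784048, minus strand). Its upstream window is shown because it holds TGACATCA, in capitals, at -67 to -60, an 8-base AP-1-like motif that 1.41% of the promoters of tested genes hold.
JUN chr1:58784048-58784297, minus strand: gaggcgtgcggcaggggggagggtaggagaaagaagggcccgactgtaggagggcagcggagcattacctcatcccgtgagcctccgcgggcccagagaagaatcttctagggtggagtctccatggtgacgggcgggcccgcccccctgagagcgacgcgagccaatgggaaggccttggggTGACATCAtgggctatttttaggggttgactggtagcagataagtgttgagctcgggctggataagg

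JUNB, a JUN protein that often opposes JUN in proliferation, was at 16.8, 20.4 and 22.5 CPM in siControl and 30.1, 23.7 and 25.2 CPM in siOGT. The groups did not overlap, and siOGT replicate 1 stood above the other libraries. The log2 fold change was 0.41 (SE 0.11, adjusted p = 0.0104, edgeR). Replicate 1 carried most of it: the pair ratios were 0.84, 0.22 and 0.16, and without replicate 1 the change was 0.19 with adjusted p = 0.275. Without the replicate block, adjusted p was 0.182 with edgeR and 0.113 with DESeq2. JUNB has 1 exon (chr19:12791486-12793315, plus strand), and HOOK2 on the opposite strand covers 259 of its exonic bases, 14.2%. Reads were counted by strand, and HOOK2 itself, at 0.18 on the log2 scale (adjusted p = 0.252, edgeR), did not pass the test. The upstream window is shown for comparison with that of FOS: TATAAA, in capitals, stands at nearly the same distance, -31 to -26.
JUNB chr19:12791236-12791485, plus strand: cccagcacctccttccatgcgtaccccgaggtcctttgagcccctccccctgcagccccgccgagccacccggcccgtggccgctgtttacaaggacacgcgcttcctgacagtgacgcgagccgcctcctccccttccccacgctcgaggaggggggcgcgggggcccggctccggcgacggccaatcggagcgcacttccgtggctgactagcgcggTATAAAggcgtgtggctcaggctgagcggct

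JUND, the JUN protein that is least dependent on growth signals, was at 92.8, 142 and 131 CPM in siControl and 102, 139.8 and 136 CPM in siOGT. Replicate 1 was lowest in both groups. The log2 fold change was 0.055, with an interval of -0.081 to 0.19 (adjusted p = 0.582, edgeR), the smallest of the 10 genes. JUND also has 1 exon, on chromosome 19 (chr19:18279694-18281622, minus strand).

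ATF3 represses or activates transcription in response to stress, alone or paired with JUN proteins, and had the largest rise of the 10 genes. It was at 19.6, 18 and 25.8 CPM in siControl and 38.8, 27.0 and 35.2 CPM in siOGT. Every siOGT library lay above every siControl library, with the nearest values being 27.0 CPM in siOGT replicate 2 and 25.8 CPM in siControl replicate 3. Means were 21.1 ± 4.12 and 33.7 ± 6.03 CPM (SD, n = 3), and the pair ratios were 0.98, 0.59 and 0.45 on the log2 scale. The log2 fold change was 0.68 (SE 0.094, adjusted p = 6.34e-05, edgeR), a 1.6-fold rise with an interval of 1.39 to 1.83. Without the block edgeR gave 0.67 with adjusted p = 0.0931, and DESeq2 without it gave adjusted p = 0.00906. ATF3 is the longest of the genes (chr1:212565334-212620777, plus strand, 4 exons) and has several start sites, so its level sums over transcripts that begin far apart.

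EGR1, an immediate early zinc finger factor that also induces its own repressor NAB2, was the only one of the 10 genes called lower. It was at 25.0, 50.6 and 18 CPM in siControl and at 13.7, 24.2 and 13.9 CPM in siOGT. Replicate 2 was the highest library in both groups, and siOGT replicate 2 exceeded siControl replicate 3, so the groups overlapped although all 3 pairs moved down. Among siControl libraries EGR1 ranged over 2.81 fold, the widest range of the 10 genes in that group, and over 1.77 fold in siOGT. The pair ratios were -0.87, -1.06 and -0.37, and the log2 fold change was -0.79 (SE 0.11, adjusted p = 4.38e-05, edgeR). The call rests on the pairing: without the block the change was -0.85 with adjusted p = 0.241 in edgeR and -0.86 with adjusted p = 0.348 in DESeq2. EGR1 has 2 exons (chr5:138465479-138469303, plus strand).

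The upstream window of EGR1 is shown because it holds the motif bound by SRF. Capitals mark a pair of CArG boxes, the SRF motif of CC, 6 A or T bases and GG, at -105 to -96 and -83 to -74. A CArG box was present in 1.05% of the promoters of tested genes and in no other of the 8 windows examined. Only exact matches within 250 bases of the start were searched, so SRF sites further away or with a mismatch would be missed.
EGR1 chr5:138465229-138465478, plus strand: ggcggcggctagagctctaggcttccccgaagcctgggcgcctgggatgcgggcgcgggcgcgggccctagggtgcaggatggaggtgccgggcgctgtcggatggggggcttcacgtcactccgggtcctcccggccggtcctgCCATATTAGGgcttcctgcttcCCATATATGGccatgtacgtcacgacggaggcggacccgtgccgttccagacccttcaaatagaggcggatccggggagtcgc

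MYC drives ribosome production and cell growth and was at 107, 97.3 and 100.4 CPM in siControl and 119.8, 108 and 112 CPM in siOGT. The difference was small and even: the pair ratios were 0.16, 0.15 and 0.16 on the log2 scale, and the groups did not overlap. The log2 fold change of 0.16 (SE 0.063) had a 95% interval of 0.023 to 0.29 and did not pass the test after adjustment (adjusted p = 0.0799, edgeR). Scaled by library totals it was 0.18 with adjusted p = 0.0449 (edgeR), and the other 9 of 10 alternatives did not call MYC.

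With library totals in place of TMM factors 6 of the 10 genes were called, beside 25.1% of all genes, 5 of them higher, beside 14.2%. DESeq2 with the block called 4 of them, beside 19.2% of all genes, and without it 2, beside 6.77%. In edgeR without the block 0 were called, beside 0.875% of all genes. There 4 of the 10 genes had an unadjusted p under 0.05 (3 higher, 1 lower), with no share over all genes to set beside them. Leaving out replicate 1 left 3 of the genes called and took the calls over all genes to 12.5%.

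**Figure D2:**
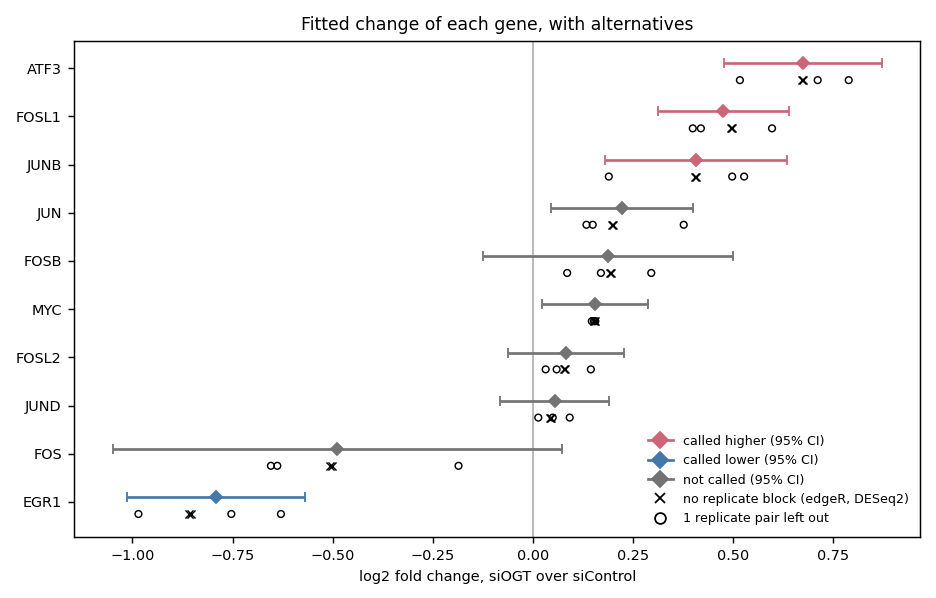
Fitted log2 fold change of each gene, siOGT over siControl, as diamonds with 95% intervals computed from the edgeR fit with the replicate block. Diamonds are coloured by call. Crosses give the fits without the block and open circles those with 1 replicate pair left out. The signs of ATF3, FOSL1, JUNB and EGR1 held in all of these fits.

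Set side by side per length of the longest transcript, with every library scaled to one total (the TPM scale), the genes differed widely in level. FOSL1 led in siControl at 1221 ± 143 (SD, n = 3), above 99.4% of genes, followed by JUN at 366 ± 85.8, FOSL2 at 218 ± 17.2, JUND at 203 ± 38.3 and MYC at 88.2 ± 6.90. JUNB at 35.0 ± 4.81, ATF3 at 32.4 ± 6.65 and EGR1 at 31.8 ± 16.6 came next and did not differ beyond their spread, nor did FOSL2 from JUND. FOSB at 4.07 ± 0.17 and FOS at 3.35 ± 0.71 were the lowest and did not differ beyond their spread. In siOGT the order was the same down to MYC, at 100.1 ± 8.77, but ATF3 at 52.8 ± 10.9 and JUNB at 47.4 ± 7.73 both stood above EGR1 at 17.9 ± 5.85. Lengths from the union of exons put JUNB before ATF3 in siOGT and EGR1 before ATF3 in siControl, so the order of those genes depends on the length used.

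FOSL1 therefore made up most FOS family message. On the same per-length scale its share of the family was 85.9%, 83.3% and 84.0% in siControl replicates 1 to 3 and 88.9%, 84.4% and 89.3% in siOGT. FOSL2 held 13.7 to 16.1% in siControl and 10.4 to 15.2% in siOGT, and FOS held under 1% in every library, 0.18 to 0.33% and 0.11 to 0.13%. Within the JUN family, JUN held 52.7 to 64.3% in siControl and 59.3 to 65.7% in siOGT, JUND 30.0 to 41.1% and 26.1 to 34.5%, and JUNB 5.54 to 6.22% and 6.18 to 8.14%. The share ranges of FOS did not overlap between the groups, and the others given so far did. Those of FOSB, 0.264 to 0.309% in siControl and 0.213 to 0.260% in siOGT, did not overlap either. In CPM the groups overlapped for both FOS and FOSB, and neither gene was called. A share depends on every gene of its family, FOSL1 included, and has no background over all genes.

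**Figure D3:**
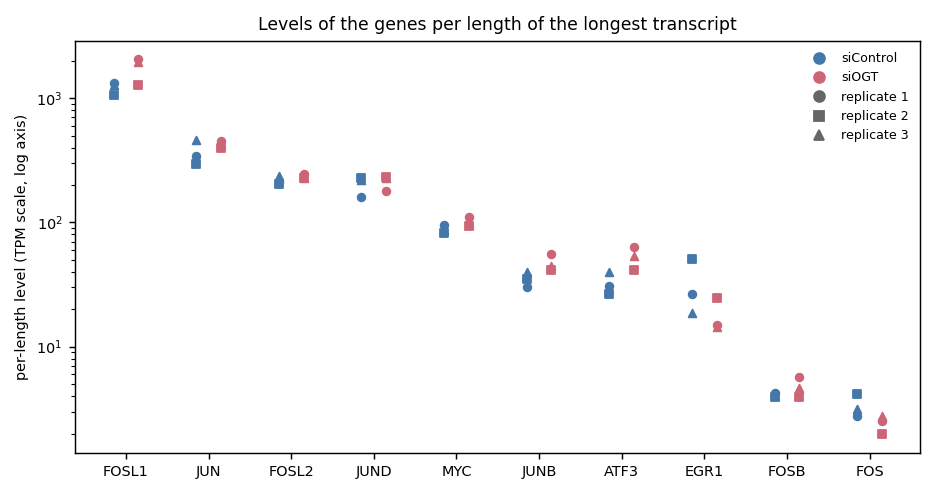
Per-length level of each gene in each library on the TPM scale (log axis), with siControl and siOGT in different colours and replicates by symbol. FOSL1 lies highest, at a mean of 1221 in siControl, FOS and FOSB lowest, at 3.35 and 4.07, with JUNB, ATF3 and EGR1 crowded between.

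The genes share a low number of exons, which the choice by name did not use, although not all are short. JUN, JUNB and JUND have a single exon in the MANE Select transcript, as do 2.66% of 14262 tested genes with such a transcript (379 genes). EGR1 has 2 exons, MYC 3, and the 4 FOS family genes and ATF3 have 4 each, against a median of 9 over those genes. ATF3 spans 55444 bases, above the median of 32804, and the MANE Select transcripts of FOSL2, FOSB and MYC are longer than the median of 3322 bases. Single-exon and multi-exon genes were both among the called ones.

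Promoter windows of 250 bases before the start (RefSeq, GRCh38.p14) matched 8 of the 10 genes, all but FOSL1 and MYC. Both strands were searched in these and in 11456 windows of tested genes. TATAAA was present in FOS, FOSB and JUNB. TGANNTCA, the 8-base AP-1 and CREB form, was present in JUN, JUND and ATF3, beside 7.71% of all windows, and overlaps with TGACGTCA (JUND, 2.68% of windows) and TGACATCA (JUN and ATF3). TGANTCA, the 7-base AP-1 form (4.27%), CACGTG, the MYC motif (8.78%), GCGGGGGCG, the EGR1 motif (7.38%), and TGATGCAA (0.419%) had no match in the 8 windows. The ATF3 window precedes an upstream start, 43354 bases from the MANE Select start. Of the TATAAA genes JUNB was called and FOS and FOSB were not. FOS and FOSB had fewer counts, and the FOSB interval, -0.12 to 0.50, holds the JUNB log2 fold change of 0.41. The FOS interval, -1.05 to 0.072, lies below that of JUNB, 0.18 to 0.64. Differences between genes with the same motif were not tested.

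**Figure D4:**
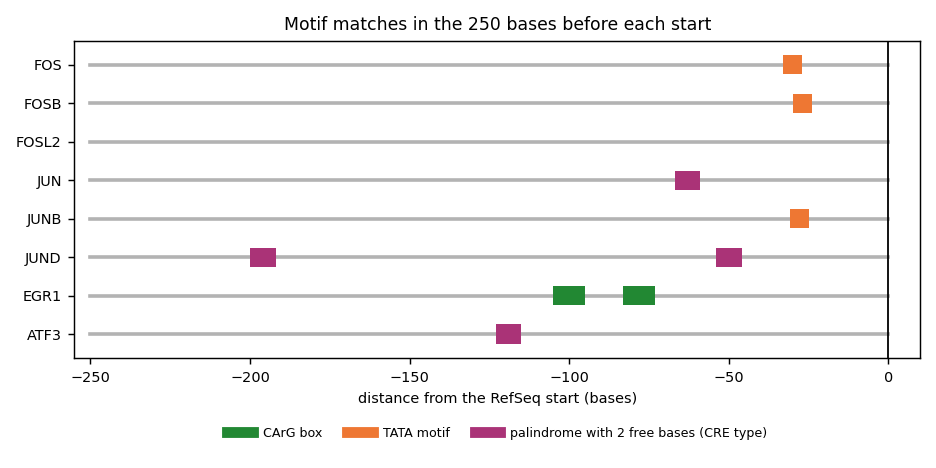
Position of motif matches in the 250 bases before the RefSeq start of 8 genes, as distance from the start in bases. The TATAAA matches of FOS, FOSB and JUNB line up near -30 and both CArG boxes lie in EGR1.

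The pathway around these genes was read from lists, each set beside the 12.7% of all tested genes called in each direction. The lists were chosen with earlier results of these data known. That choice can itself raise a count, so a count above this share is a description and not a test. Among other genes of the zipper superfamily, not all of them established partners of AP-1, 6 of 19 rose and 0 fell. DESeq2 with the block also called 6 and 0. At an unadjusted p under 0.05, 10 were higher and 1 lower. The share of all genes under that unadjusted p was not taken, so counts at it, here and below, have no background. DDIT3, the stress factor CHOP, went from 22.7 ± 5.74 to 37.6 ± 9.22 CPM (log2 fold change 0.73, SE 0.076). CEBPB, an inflammatory C/EBP factor, rose by 0.48 (SE 0.077) and MAFG, a small MAF protein, by 0.47 (SE 0.069). ATF4, ATF5 and NFE2L2 were the other genes called in that list.

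Of 21 other immediate early genes, 6 rose and 3 fell (4 and 2 in DESeq2 with the block, and 4 calls in all without replicate 1). KLF10, a TGF-beta-induced Kruppel-like factor, went from 117 ± 17.3 to 210.1 ± 46.3 CPM (0.82, SE 0.072), KLF2 rose by 0.70 (SE 0.082), and ZFP36, which destabilises AU-rich messages including those of immediate early genes, rose by 0.51 (SE 0.079). CTGF, a matricellular gene, fell by 0.63 on the log2 scale (SE 0.072), NAB2, the repressor of EGR1, by 0.32 (SE 0.084, not called by DESeq2), and CYR61, a relative of CTGF, by 0.21 (SE 0.066). SRF, at 175 and 159 CPM on average, gave -0.14 on the log2 scale and did not pass the test.

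The list of ERK feedback genes had the most calls for its size, 13 of 17, with 8 higher and 5 lower. DESeq2 with the block called 7 of them (5 higher, 2 lower), edgeR without replicate 1 called 8 (4 and 4), and edgeR without the block called 1. The phosphatases DUSP8, DUSP10 and DUSP16, which act mainly on JNK and p38, rose by 0.94 (SE 0.087), 0.62 (SE 0.079) and 0.45 (SE 0.079). The ETS factor ETV4, an output of ERK signalling, went from 19.8 ± 4.24 to 8.20 ± 3.03 CPM (-1.30, SE 0.11), and its relative ETV5 fell by 0.35 (SE 0.066). SPRY1, an inhibitor of receptor tyrosine kinase signalling, fell by 0.64 (SE 0.21) from a low level of 3.23 ± 0.75 CPM. That call was kept in 4 of 10 alternatives and was lost in DESeq2 and on leaving out any 1 replicate. Also called were DUSP1, DUSP7, SPRY2, SPRED3 and PHLDA1, all higher, and DUSP4 and DUSP6, both lower. Of these only DUSP1 and DUSP7 were also called by DESeq2 with the block. Genes of this list thus moved in both directions, and their median log2 fold change was 0.089. As the list includes phosphatases that act mainly on JNK and p38, its counts do not measure ERK output alone.

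The kinases upstream had few calls, 2 higher and 3 lower of 27, with a median of 0.0010 (2 and 1 in DESeq2 with the block, and 2 calls in all without replicate 1). BRAF rose by 0.50 (SE 0.068) and MAP2K3, which activates p38, by 0.26 (SE 0.066). The p38 kinase genes MAPK11 and MAPK12 fell by 0.54 (SE 0.16) and 0.26 (SE 0.095), and GSK3B, a kinase that marks MYC and JUN for destruction, by 0.26 (SE 0.064). MAPK12 was at the threshold (adjusted p = 0.04998, edgeR) and was called in 2 of 10 alternatives, and MAPK11 in 5 of 10, neither of them in DESeq2. Among 7 SRF cofactors and ETS partners, ELK3 rose by 0.23 (SE 0.068) and FHL2 fell by 0.22 (SE 0.068), neither of them called without replicate 1.

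In the MYC network 2 of 17 genes rose and 2 fell (1 and 2 in DESeq2 with the block, and 2 calls in all without replicate 1). MXD1, which competes with MYC for MAX, rose by 0.53 (SE 0.096) and MLX by 0.19 (SE 0.067), while the related MXD3 and MXD4 fell by 0.57 (SE 0.10) and 0.21 (SE 0.065). Of 27 MYC target genes 4 rose and 0 fell, with a median of 0.025 (unadjusted p under 0.05 in 6 higher and 0 lower genes, and DESeq2 with the block called 2 and 0). No target was called without replicate 1 and 1 without replicate 2, while without replicate 3 there were 4 higher and 1 lower. The ribosome biogenesis genes WDR74, WDR43 and POLR1B rose by 0.26 (SE 0.068), 0.21 (SE 0.073) and 0.21 (SE 0.073).

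Among 22 AP-1 target genes 6 rose and 2 fell, with a median of 0.12. MMP1, the interstitial collagenase, went from 37.9 ± 15.6 to 67.1 ± 34.7 CPM (0.78, SE 0.090), HMOX1, heme oxygenase, rose by 0.60 (SE 0.10) and DUSP1, an ERK, JNK and p38 phosphatase, by 0.39 (SE 0.078). PLAU, urokinase, fell by 0.40 (SE 0.080) and TGFB1 by 0.25 (SE 0.065). Heat shock genes are only part of the response to stress, and the stress factors DDIT3 and ATF3 rose. Of 10 heat shock genes 4 fell and 0 rose. At an unadjusted p under 0.05 in edgeR, 4 were lower and 1 higher. DESeq2 with the block called 3 lower and 0 higher, and edgeR without replicate 1 or without replicate 3 called 2 lower. HSPA1A fell by 0.46 (SE 0.071), HSPA1B by 0.36 (SE 0.097) and BAG3 by 0.23 (SE 0.064), where reads of HSPA1A and HSPA1B, near-identical copies, cannot be assigned with certainty. The part of the heat shock genes in the changes of ATF3, JUNB and EGR1 was not tested.

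**Figure D5:**
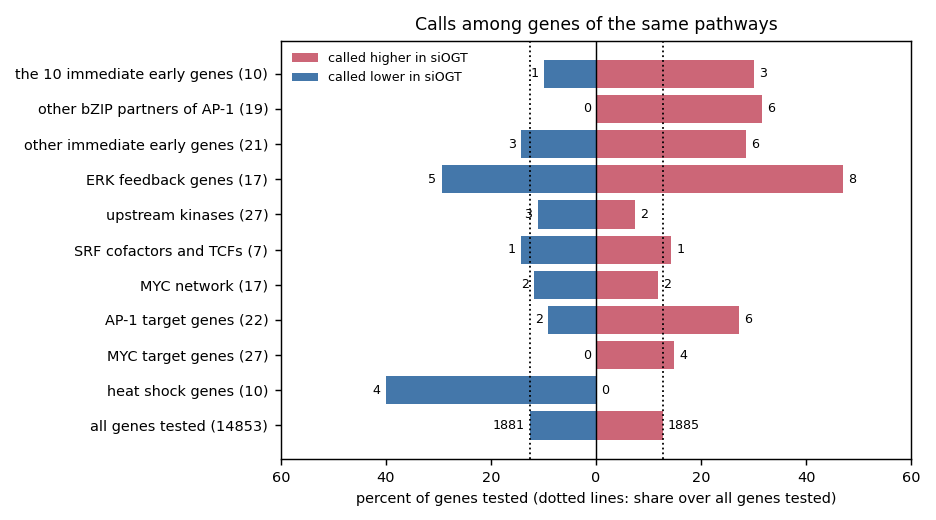
Percent of the tested genes of each list (number in brackets) called higher in siOGT, to the right, or lower, to the left, with dotted lines at the 12.7% of all tested genes called in each direction. The ERK feedback bar is long on both sides. The bar of other zipper genes, labelled partners of AP-1, is long only on the right, and the heat shock bar only on the left. The MYC target bar, also only on the right, ends near the dotted line, at 14.8%.

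Most of these list calls needed the pairing. Of the 54 list genes called, 1 (DUSP8) was still called by edgeR without the block, 38 by DESeq2 with it and 29 without replicate 1. Of the 37 called list genes given with values, DESeq2 with the block called 28, all but FHL2, HSPA1B, MAPK11, MAPK12, MLX, NAB2, POLR1B, SPRY1 and WDR43. Without replicate 1 edgeR called 23, all but BAG3, CYR61, ELK3, FHL2, GSK3B, MAP2K3, MAPK12, MLX, MXD4, NAB2, POLR1B, SPRY1, WDR43 and WDR74.

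By Pearson correlation of log2 CPM over the 6 libraries, the genes most like ATF3 among 12373 with a mean of at least 1 CPM were SPG11 (0.999), ZNF550 (0.998), TOLLIP (0.998), SIK3 (0.997) and BANP (0.996), of which all but SPG11 were called higher. Those most like EGR1 were TP53I11 (0.999), HSD17B4 (0.998), RAB42 (0.994), RAB11A (0.992) and FAM210B (0.992), of which TP53I11 and FAM210B were called lower. These are the highest of many values over few libraries and include the shared difference between groups and replicates.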

How the data were processed

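Stranded, oligo-dT-selected RNA of 6 LX-2 libraries was measured. The authors aligned reads to hg38 with Bowtie2 2.3.5.1 and estimated counts per gene with RSEM 1.3.1, in strand-specific mode. The deposited values are expected counts, not normalized, in which a read matching several genes is divided between them. Some symbols have RefSeq form although the methods name GENCODE, so the exact gene models are not known. The authors' own comparison table was deposited too and was not used: it holds a signal (mean of counts divided by size factors), log2 fold changes with errors and p-values made by the authors with DESeq2 1.36.0.

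Expected counts were rounded, and genes with a total of at least 10 were kept (14853 of 16907). The main test was edgeR's quasi-likelihood F test (version 4.0.16, R 4.3.3, two-sided) on counts scaled by TMM. As in the authors' design, replicates entered as a block. Adjustment over all genes was by Benjamini-Hochberg. Deviations of same-numbered libraries correlated at 0.69, 0.53 and 0.33 over 12373 genes, so numbers were taken to pair the samples. The groups and replicate numbers come from the labels, and the study calls the replicates independent experiments. No libraries of a group agreed within sampling noise. Pair ratios are differences of log2 CPM with a prior count of 2, and CPM uses TMM-scaled library totals. Fits were tested on simulated data. Gene models are from GENCODE 44, and levels per length use the longest transcript. Motif positions count back from -1, the base before the start. Alternatives were DESeq2 1.42.0, no block, other scalings, other filters and leaving out each replicate. The 10 genes and the lists were chosen with earlier results of these data known. All 10 genes were named, and from each list the 3 called genes of largest change in each direction whose 3 pairs had one sign and whose mean was 1 CPM or more. The 5 genes most alike were named for the called gene of smallest adjusted p in each direction.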

Additional observations from a re-analysis of the deposited data

How the results depend on the processing

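Of 100 values of the 10 genes over 10 alternative settings, 89 kept their sign and their side of the threshold and 0 changed sign. The replicate block mattered most. In edgeR without it, 130 genes were called (71 higher, 59 lower), 0 of the 10 genes (0 higher, 0 lower) and 1 list gene (1 higher, 0 lower), with FOSL1 at 0.50, JUNB at 0.41, EGR1 at -0.85 and ATF3 at 0.67. In DESeq2 without the block, 849 genes were called (388 higher, 461 lower), 2 of the 10 (0 lower) and 13 list genes (10 higher, 3 lower), with JUNB at 0.40 and EGR1 at -0.86 no longer called. DESeq2 with the block called 2415 genes, 1117 higher, and 12 list genes lower. With library totals 5 of the 10 genes were called higher, JUN at 0.25 and MYC at 0.18 among them, and with no filter JUN was called at 0.22. Leaving out 1 replicate pair gave 1803 to 3439 genes called (858 to 1652 higher, 945 to 1787 lower) against 3766, and 29 to 50 list genes (18 to 36 higher, 11 to 14 lower) against 54, lowest without replicate 1. JUNB ranged from 0.19 to 0.53 and JUN from 0.13 to 0.38. With the union of exons as length, siControl levels were 1579 for FOSL1, 292 for FOSL2, 471 for JUN, 50.2 for JUNB, 291 for JUND, 77.0 for MYC and 24.4 for ATF3. The cause of these shifts was not tested. Each group had 3 libraries, and the 35 to 71 counts of FOS per library limit what can be seen for it.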
